A study of Mus musculus with 4 samples.

Results

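The genes described here are 47 DNA replication genes, chosen by symbol from a list of replication factors, and all 47 were found among the 21926 genes counted in both libraries. The counts come from single-cell RNA-seq of unsorted thymus cells on a droplet system in which a tag near the 3′ end of each transcript is read and each molecule carries a unique molecular identifier (UMI). There was 1 library from a WT mouse (*Eif4g2* flox/flox without Cre) and 1 from an *Eif4g2* cKO animal, which had the genotype CD4-Cre; *Eif4g2* flox/flox. Both mice were 5 weeks old, labelled female and given the same batch. Both mice carried the floxed *Eif4g2* alleles and the *Eif4g2* cKO mouse also carried the Cre transgene, so the effect of Cre itself cannot be told apart from that of the deletion. The Cd4 promoter drives Cre from the CD4+CD8+ (DP) stage on, and CD4-CD8- (DN) cells and cells outside the T lineage are not expected to have deleted the gene. With 1 mouse per genotype, genotype, mouse and library cannot be told apart, no test between genotypes was possible, and every interval given is a 95% interval that covers counting error only.

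Before a cell copies its genome, the origin recognition complex with Cdc6 and Cdt1 loads the MCM helicase on the DNA, a step called licensing. Cyclin E, Mcm10, Cdc45 and the GINS complex then turn the helicase on, polymerases alpha, epsilon and delta copy the strands with the clamp PCNA and its loader RFC, and RPA covers the single strands. Ligase, flap nuclease and the enzymes of nucleotide supply complete the machinery, much of which is transcribed at the border of G1 and S phase through E2F factors. In the thymus, cells divide in a burst after the pre-TCR checkpoint, between the DN stage and the small resting DP stage, so that replication genes mark a short part of the pathway.

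Because E2F factors bind GC-rich letters that follow a run of T, the RefSeq promoter windows, 250 bases before to 50 after a start site, were searched on both strands for TTTCCCGC, TTTCGCGC, TTTGCCGC and TTTGGCGC. Of the 39 members with a window, 17 (43.6%) held at least 1 of these, against 3.32% of all 16615 genes of the files with a window, 8 of the 37 other replication genes with a window (21.6%) and 3 of the 42 mitosis genes with a window (7.14%). The letters TTTGAA, found in promoters of mitosis genes, were in 12.8% of the members, 69% of the mitosis genes and 17.7% of all genes. The following stretches of 30 bases, from build GRCm38.p6 and written on the strand of the gene, show such letters in capitals for members of different roles.
Mcm5, helicase subunit, chr8:75109345-75109374, plus strand: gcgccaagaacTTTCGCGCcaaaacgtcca
Mcm6, helicase subunit, chr1:128359734-128359763, minus strand: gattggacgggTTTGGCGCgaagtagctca
Cdc6, licensing, chr11:98908002-98908031, plus strand: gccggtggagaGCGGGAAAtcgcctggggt
Gins3, helicase activation, chr8:95633507-95633536, plus strand: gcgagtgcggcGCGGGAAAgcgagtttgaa
Pola1, polymerase alpha, chrX:93632275-93632304, minus strand: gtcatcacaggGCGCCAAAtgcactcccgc
Hells, chromatin remodelling, chr19:38930917-38930946, plus strand: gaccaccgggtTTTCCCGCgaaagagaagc
In these windows the matches shown began 153 bases before the start site in *Mcm5*, 47 in *Mcm6*, 138 in *Cdc6*, 41 in *Gins3*, 138 in *Pola1* and 62 in *Hells*. The window of *Mcm6* held further matches, not shown, that began 106 and 110 bases before the start site. In *Mcm5* the match shown overlaps TTTGGCGC on the opposite strand, which begins 149 bases before the start site. A match is a description of the letters and not a binding site, and the absence of a match says only that these letters are not in the window.

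The WT library held 6014 cells and 18355050 UMIs (median 1733 UMIs per cell), and the *Eif4g2* cKO library 4335 cells and 18056277 UMIs (median 2140). The level of *Eif4g2*, in counts per 1000000 UMIs (CPM), was 223 (216–230) in the WT library and 274 (266–281) in the library labelled *Eif4g2* cKO, which was thus not lower. Where the floxed exons lie relative to the 3′ tags is not given in the sources used here, so this level does not check the label. The label and the data differ in 1 point: 3 genes of the Y chromosome (*Uty*, *Kdm5d* and *Eif2s3y*) together had 2542 UMIs in WT and 1 UMI in *Eif4g2* cKO, so sex and genotype cannot be told apart either. Cells are named by running numbers, 1055 of which occur in both libraries, so a sharing of barcodes cannot be read. No doublet caller was used, and 264 WT and 419 *Eif4g2* cKO cells above 10000 UMIs were kept. T lineage cells numbered 5905 in WT and 4305 in *Eif4g2* cKO.

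Cell cycle states were called from genes that are not members. S cells had at least 0.5% of their UMIs in 61 replication-dependent histone genes and under 0.3% in 49 mitosis genes, S-G2 cells were at or above both, G2/M cells only above the second, resting cells were under 0.1% for both, and the rest were called intermediate. The WT library had 2177 resting, 2695 intermediate, 223 S, 586 S-G2 and 224 G2/M cells, and the *Eif4g2* cKO library had 1658, 1570, 121, 580 and 376. S, S-G2 and G2/M were together 17.5% of the T lineage cells in WT against 25.02% in *Eif4g2* cKO, and 20.9% and 27.6% once every cell was thinned to 1000 UMIs. With this thinning the resting share went from 36.87% to 18.65% in WT and from 38.51% to 19.65% in *Eif4g2* cKO. The intermediate share went from 45.64% to 60.51% and from 36.47% to 52.71%. The line between resting and intermediate cells thus moved with depth and is not a line between cycle phases alone. The calls were checked with 3 genes outside the lists. *Mki67*, a marker of dividing cells, stood at 9.37 CPM in resting, 96.55 CPM in S and 327 CPM in S-G2 cells of WT. In *Eif4g2* cKO it stood at 10.6, 135.9 and 290 CPM, and *Top2a* and *Stmn1* had the same order. Of the cells, 334 in WT and 253 in *Eif4g2* cKO lay within 0.1 percentage points of the histone threshold, and 212 and 262 as near to the mitosis threshold. The histone genes are near-identical copies, and how the counting split reads between them was not tested.

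With UMIs summed over the cells of a state, S cells of both libraries had far more of the replication genes than resting cells. Per cell, the median percent of UMIs in members was 0.18 in S (quartiles 0.07 and 0.69) and 0.09 in resting cells of WT. In *Eif4g2* cKO it was 0.75 (quartiles 0.45 and 0.98) and 0.09. Summed over the 47 members, the level was 1221 CPM (1191–1252) in resting and 6328 CPM (6184–6473) in S cells of WT, and 1441 CPM (1404–1479) and 7505 CPM (7328–7685) in *Eif4g2* cKO. In WT, 46 members had at least 50 UMIs over both states, and 43 of these were higher in S by over 1.0 on the log2 scale and 0 lower, where 5.88% of all genes were as much higher and 20.7% lower. After centring on the median of all genes 44 were higher (11.6% of all genes) and 0 lower (9.97%). In *Eif4g2* cKO 42 of 44 members were higher and 0 lower, against 5.23% and 31.9% of all genes, and 43 and 0 (13% and 14.8%) after centring. The median log2 ratio of the members was 2.34 in WT and 2.35 in *Eif4g2* cKO, beside -0.40 and -0.56 over all genes. The 41 members that were past 1.0 in both libraries were counted among 44 measured in both. *Orc1* was under the count minimum in both libraries, and *Mcm10* and *Gins3* in *Eif4g2* cKO.

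The 5 members with the highest ratios, by the mean of both libraries, were *Tk1*, *Ccne2*, *Clspn*, *Rrm2* and *Tyms*. *Tk1*, thymidine kinase, went from 8.40 CPM in resting to 168 CPM in S cells of WT (log2 ratio 4.33, 3.84–4.84) and from 9.32 to 233 CPM in *Eif4g2* cKO (4.65, 4.14–5.19). *Ccne2*, a cyclin E, had log2 ratios of 4.08 (3.41–4.81) and 4.57 (3.77–5.47), on 23 and 15 UMIs in resting cells. The ratios of these enzymes and regulators lay above those of the MCM subunits in both libraries. *Clspn*, which carries the checkpoint signal at stalled forks, had ratios of 4.48 (3.93–5.06) in WT and 4.11 (3.51–4.75) in *Eif4g2* cKO. *Rrm2*, the regulated subunit of ribonucleotide reductase, had 4.11 (3.74–4.49) and 4.37 (4.01–4.74), and *Tyms*, thymidylate synthase, 3.91 (3.59–4.24) and 3.93 (3.64–4.24).

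At the other end stood *Orc2*, *Rpa1*, *Rfc1*, *Gins4* and *Pold3*. *Orc2*, a core subunit of the origin recognition complex, was at 32.2 CPM in resting and 30.8 CPM in S cells of WT and at 31.2 and 24.1 CPM in *Eif4g2* cKO, and both ratios had intervals that held 0 (-0.07, -0.63 to 0.46, and -0.37, -1.10 to 0.29). Over 19046 bases *Orc2* overlaps *Nif3l1* on the opposite strand, and whether the counting used strand is not given in the sources used here. *Rpa1*, the large subunit of RPA, had ratios of 0.20 (-0.13 to 0.52) and 0.85 (0.49–1.20). The other subunits of RPA were further apart between the states, with 1.997 and 1.82 for *Rpa2* and 1.46 and 1.28 for *Rpa3*. *Rfc1*, the large subunit of the clamp loader, had 1.15 (0.88–1.42) and 1.12 (0.76–1.48), below those of *Rfc2* to *Rfc5*, which lay between 1.32 and 3.01. *Pole2* passed 1.0 only in *Eif4g2* cKO (1.92, 1.22–2.63), with 0.80 (0.07–1.49) on 25 UMIs in WT S cells.

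**Figure D1:**
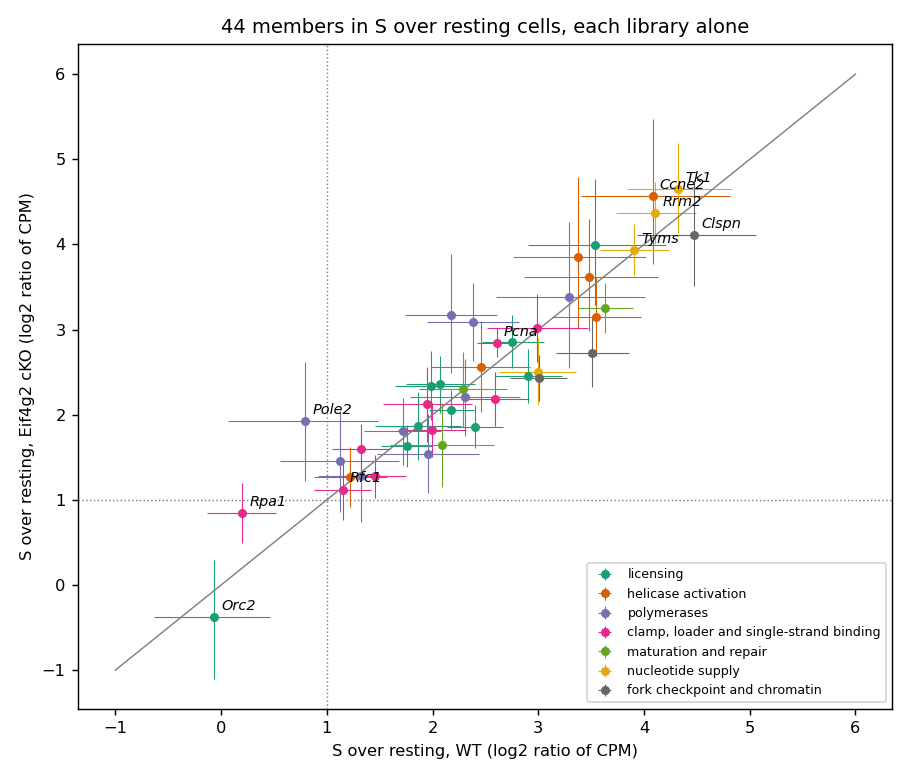
Log2 ratio of S over resting cells in WT (x axis) and in *Eif4g2* cKO (y axis) for the 44 members with at least 50 UMIs in both comparisons. Bars are exact 95% intervals of counting error, colours are roles, dotted lines mark 1.0 and the solid line equal values; *Orc2* and *Rpa1* lie under 1.0 in both libraries and *Tk1*, *Ccne2*, *Clspn*, *Rrm2* and *Tyms* above 3.9.

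By role, the median log2 ratio in WT was 4.01 for the 4 genes of nucleotide supply, 3.51 for the 3 genes of fork checkpoint and chromatin, 3.43 for the 8 of helicase activation, 2.29 for the 3 of maturation and repair, 2.13 for licensing and 1.95 for the polymerases and for the clamp, loader and single-strand binding genes. In *Eif4g2* cKO, where 6 of the 8 genes of helicase activation were measured, the first and last roles were the same, from 4.15 for nucleotide supply to 1.82 for the clamp group, while fork checkpoint and chromatin (2.73) lay below helicase activation (3.38). A wider list of 50 other replication genes, among them *Dut* and *Slbp*, was less high in S: 24 of 42 measured in WT and 26 of 41 in *Eif4g2* cKO were past 1.0, with medians of 1.54 and 1.53. Members with E2F letters in the window had a median ratio of 2.495 in WT and 2.44 in *Eif4g2* cKO, and those with a window without them 2.19 and 2.30, and the ranges of the groups overlapped.

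The S state did not hold the same cells in the libraries. Of the 223 WT S cells, 132 were DP-like cells with a median of 1289 UMIs, and their summed member level was 980 CPM (843–1133), near that of resting DP-like cells (1046 CPM, 997–1096). In *Eif4g2* cKO 22 of 121 S cells were of that kind, at 752 CPM (471–1138). The other large part of the S cells lay in 2 T lineage clusters that the stage markers did not name, called cycling clusters here from leading genes such as *Nusap1*, *Kif11*, *Ube2c* and *Ccna2*. In these, 81 WT S cells stood at 7592 CPM (7413–7774) and 97 *Eif4g2* cKO S cells at 7744 CPM (7559–7932). With only the S cells of the cycling clusters, an alternative chosen after seeing the data, 44 members in WT and 42 in *Eif4g2* cKO were higher in S, with medians of 2.65 and 2.39. For this choice of cells no share of all genes is given here.

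Within the cycling clusters, which hold 76.4% of all member UMIs of the WT T lineage and 87.6% of those of *Eif4g2* cKO, the members differed in the state of their highest level. Here the intermediate cells, low in histone and mitosis UMIs, were below S cells but above S-G2 cells in members, at 7055 CPM (6905–7208) in WT against 6649 CPM (6554–6744) in *Eif4g2* cKO, and G2/M cells were lowest, at 4014 CPM (3899–4132) and 4329 CPM (4258–4401). The highest level was in the same state in both libraries for 33 of 47 members: in intermediate cells for 9 (among them *Cdc6*, *Cdt1*, *Ccne2* and *Ung*), in S cells for 20 and in S-G2 cells for 4. No member was highest in G2/M. For most members the interval of the highest state overlapped the next, and in both libraries it was apart for *Ung*, *Pcna*, *Lig1* and *Rrm2*.

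*Ung*, the glycosylase that removes uracil from DNA, had the steepest course. It stood at 135 CPM (114–157) in intermediate, 74.4 CPM (57.7–94.5) in S, 5.55 CPM (3.48–8.40) in S-G2 and 24.4 CPM (16.2–35.3) in G2/M cells of WT. In *Eif4g2* cKO the same states gave 119 CPM (106–132), 70.8 CPM (54.2–91.0), 5.25 CPM (3.29–7.95) and 12.2 CPM (8.71–16.6). The S-G2 level was thus lowest in both libraries, on 22 UMIs in each. *Cdc6*, which loads MCM, was at 108, 84.4, 40.9 and 29.6 CPM in these states in WT and at 94.3, 87.1, 42.0 and 36.9 CPM in *Eif4g2* cKO, and *Ccne2* at 93.3, 81.1, 37.6 and 22.7 CPM and at 94.3, 92.9, 48.0 and 15.3 CPM. Both were higher in intermediate and S cells than in S-G2 and G2/M cells.

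*Pcna*, the sliding clamp, was highest in S, with 602 CPM (552–655) in WT against 861 CPM (801–926) in *Eif4g2* cKO, and *Lig1*, which seals nicks on the lagging strand, was highest there too, with 495 CPM (450–543) and 345 CPM (307–386). *Rrm2* was highest in S-G2 cells, with 461 CPM (441–483) and 578 CPM (555–601), against 314 CPM (279–353) and 424 CPM (381–470) in S. By role, licensing was at 2055 CPM in intermediate, 1956 in S, 1208 in S-G2 and 1262 in G2/M cells of WT and at 1903, 1934, 1139 and 1079 CPM in *Eif4g2* cKO. Nucleotide supply ran another course, with 733, 1053, 1257 and 454 CPM in WT against 887, 1287, 1513 and 772 CPM in *Eif4g2* cKO. Licensing thus stood higher in intermediate and S cells than in S-G2 and G2/M cells, and nucleotide supply was highest in S-G2 cells of both libraries.

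**Figure D2:**
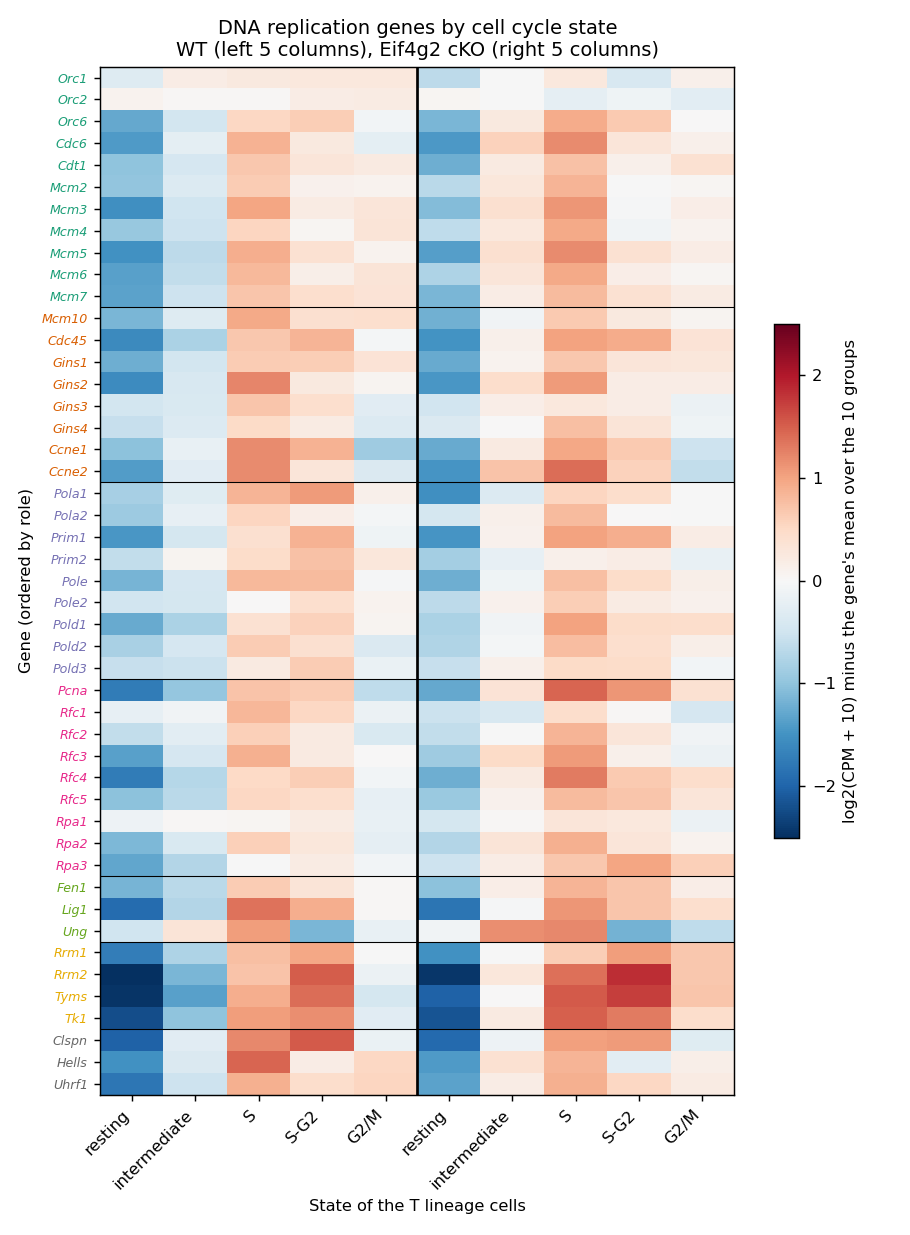
Level of each of the 47 members in the 5 states of all T lineage cells, WT in the left and *Eif4g2* cKO in the right columns, as log2(CPM + 10) minus the gene's mean over the 10 groups, so that colours compare states and not genes. Rows follow roles (label colour); resting columns are blue for nearly all members, *Orc2* and *Rpa1* stay pale, and *Ung* is blue in S-G2.

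Among the named classes of thymocytes, DN-like cells had the highest summed level, 2787 CPM (2661–2917) on 100 WT cells and 2651 CPM (2547–2758) on 131 *Eif4g2* cKO cells. Resting DN-like cells stood below this, at 2458 CPM (2285–2642) and 2262 CPM (2146–2383). DP-like cells stood at 1028 CPM (1001–1055) and 1113 CPM (1078–1148), and early post-selection-like cells, which have just received a TCR signal, at 995 CPM (946–1047) and 1024 CPM (963–1087). These neighbours in the order overlapped in part, whereas DN-like cells lay above both without overlap of intervals. Mature SP-like cells stood at 1522 CPM (1476–1568) and 1514 CPM (1445–1585). Of the 699 WT cells of this class, 32 were S-G2 cells at 4510 CPM (4248–4785), with 1100 of its 4244 member UMIs. In *Eif4g2* cKO 7 of 273 were S-G2 cells, too few for a level. The median depth of the 32 cells was 7072 UMIs, against 3514 for the class, and doublets among them were not tested for. Resting mature SP-like cells of WT had 1133 CPM (1087–1181), overlapping resting DP-like cells (1046 CPM, 997–1096). For the same classes in *Eif4g2* cKO, resting levels were 1257 CPM (1184–1333) and 1123 CPM (1070–1178), without overlap of intervals. NKT or gamma delta-like cells of WT had 817 CPM (698–951). Outside the T lineage, 44 erythroid-like cells of WT had 210 CPM (159–272), and how much of this was free RNA or the cells' own was not tested. DP-like cells came from different clusters in the libraries, 2 with mostly WT cells and 2 with mostly *Eif4g2* cKO cells.

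**Figure D3:**
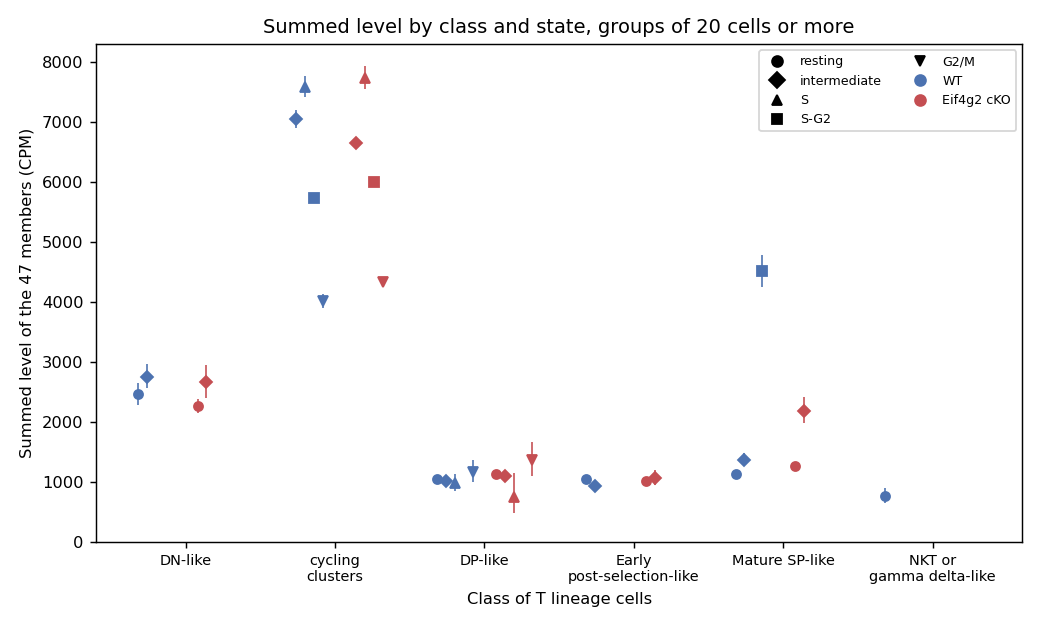
Summed level of the 47 members in CPM (y axis, from 0) by class of T lineage cells (x axis), with a marker for each state and a colour for each library, for groups of at least 20 cells. Bars are exact Poisson 95% intervals; cells of the cycling clusters lie between 4014 and 7744 CPM, and DP-like cells between 752 and 1360 CPM.

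For the comparison of the genotypes, the T lineage as a whole was taken first. Summed over the members, WT had 3153 CPM against 4157 CPM in *Eif4g2* cKO (log2 ratio 0.40). All 47 members were measured, and 12 were higher by over 0.5, where 5.18% of all genes were, and 1, *Orc1*, lower, where 41.2% of all genes were. Without cells above 10000 UMIs 21 members were higher, and 23 by the mean of per-cell CPM, both without a share of all genes to set beside them. The members' median log2 ratio was 0.34 and that of all genes -0.35, so that after centring on all genes 35 members were higher (19.5% of all genes) and 0 lower (24.4%). The libraries differed in makeup: the cycling clusters held 15.5% of WT and 30.01% of *Eif4g2* cKO T lineage cells, and 40.8% and 62.8% of their UMIs. Within the cycling clusters the summed level was 5903 CPM (5848–5959) in WT against 5798 CPM (5753–5842) in *Eif4g2* cKO, and outside them 1259 CPM (1238–1281) and 1389 CPM (1361–1418). Within the cycling clusters the log2 ratio of the sums was -0.03 (-0.04 to -0.01), and 0.07 without cells above 10000 UMIs. These clusters were built without the members, and 854 of the 913 WT cells were in 1 of the 2 clusters and 1167 of the 1292 *Eif4g2* cKO cells in the other.

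Within the cycling clusters 1 member, *Rpa3*, was higher in *Eif4g2* cKO by over 0.5, where 3.29% of all genes were, and 6 were lower (*Pola1*, *Clspn*, *Prim2*, *Rfc1*, *Orc1* and *Mcm10*), where 34.4% of all genes were. The members' median was -0.05 and that of all genes -0.26, and after centring 3 were higher (11% of all genes) and 3 lower (21.2%). Of the 50 other replication genes 1 was higher and 12 lower, with a median of -0.22. By role the medians ran from -0.42 for fork checkpoint and chromatin to 0.13 for nucleotide supply. The members of the MCM ring lay close together, between -0.11 for *Mcm3* and 0.00 for *Mcm5*, and *Mcm3* turned to 0.10 without cells above 10000 UMIs, 0.08 by the mean of per-cell CPM and 0.15 after centring.

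*Rpa3*, the small subunit of RPA, stood at 153 CPM (144–162) in the WT against 236 CPM (227–245) in the *Eif4g2* cKO cycling clusters (log2 ratio 0.63, 0.52–0.73). It was the 1 member past 0.5 in all 5 states, with ratios from 0.71 to 1.02. In DN-like cells it was higher also (54.5 CPM, 38.2–75.5, against 97.2 CPM, 78.2–119.5), on 36 and 90 UMIs, and the cause was not tested. In resting cells it was at 48.2 CPM (42.4–54.6) and 91.2 CPM (82.0–101). *Pcna* was at 452 CPM (436–467) and 594 CPM (580–608) in the cycling clusters (0.39, 0.33–0.46) and at 136 CPM (110–168) and 206 CPM (178–238) in DN-like cells. In no state and no class tested did the *Rpa3* level of WT lie above that of *Eif4g2* cKO.

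On the low side, *Pola1*, the catalytic subunit of polymerase alpha, was at 86.7 CPM (80.1–93.8) in WT against 49.97 CPM (45.9–54.3) in *Eif4g2* cKO cycling clusters (-0.80, -0.96 to -0.63). In DN-like cells it was at 48.5 CPM (33.2–68.4) and 17.3 CPM (9.88–28.1), on 32 and 16 UMIs, under the minimum of 50 UMIs for a ratio. It is the 1 member on the X chromosome, and the libraries differ in Y-linked UMIs as given above, and the part of this in the difference was not tested. *Prim2*, the large primase subunit that works with it, was at 86.9 and 50.3 CPM (-0.79, -0.95 to -0.62), while *Prim1* (-0.10) and *Pola2* (-0.12), of the same complex, lay near 0. *Clspn* was at 164 and 94.3 CPM (-0.80, -0.92 to -0.67) and *Rfc1* at 115 and 70.7 CPM (-0.70, -0.84 to -0.56), against 0.16 or less in size for *Rfc2* to *Rfc5*. In both complexes 1 or 2 subunits were lower in *Eif4g2* cKO and the others not. By state over all T lineage cells, *Clspn* was less low or higher, at -0.19 in S, -0.51 in S-G2 and -0.15 in G2/M cells. It was at 0.20 in intermediate and 0.18 in resting cells, and at -0.55 in S cells of the cycling clusters. The states had different shares of the cycling clusters in the libraries, and their part in the pooled ratios was not tested.

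**Figure D4:**
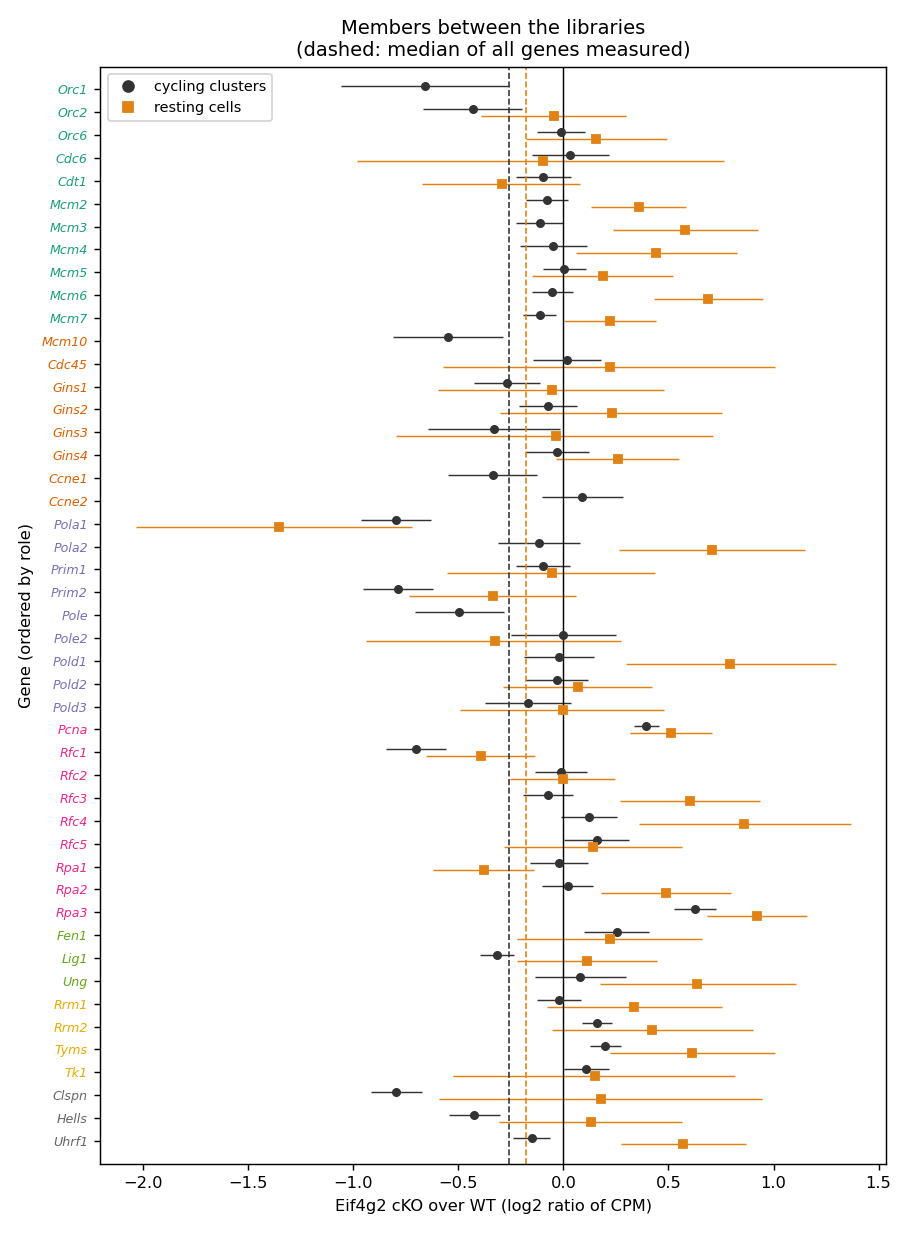
Log2 ratio of *Eif4g2* cKO over WT (x axis) for each member (rows, by role) in the cycling clusters (dark circles) and in resting cells (orange squares), with exact 95% intervals; members under 50 UMIs in a comparison have no point. Dashed lines mark the median of all genes, -0.26 and -0.18, and *Rpa3* is the member furthest right in both, while *Pola1* and *Clspn* lie furthest left in the cycling clusters and *Pola1* in resting cells.

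Of the 6 members lower in the cycling clusters, 5 had a gene body over 30 kb. *Pola1* spans 327 kb (chrX:93304767-93632155, GRCm38), *Prim2* 216 kb, *Rfc1* 73.8 kb, *Clspn* 37.0 kb and *Orc1* 35.4 kb, whereas *Rpa3* spans 3.24 kb (chr6:8255936-8259173) and *Pcna* 4.15 kb. In the cycling clusters the median ratio of the members was -0.01 for 11 genes of up to 10 kb, -0.03 for 24 of 10 to 30 kb, -0.43 for 10 of 30 to 100 kb and -0.79 for 2 longer ones. All genes had the same order, with 0.02, -0.15, -0.47 and -0.93. Members of each span class were thus near the genes of like span, and what moves with span between these libraries was not tested.

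**Figure D5:**
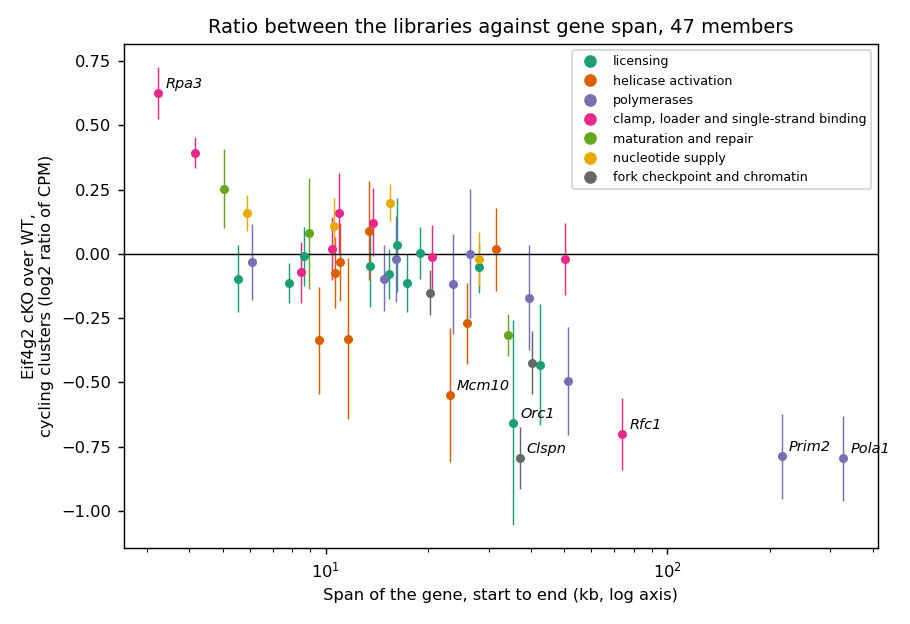
Log2 ratio of *Eif4g2* cKO over WT in the cycling clusters (y axis, with exact 95% intervals) against the span of the gene from start to end (x axis, kb, log scale) for the 47 members, coloured by role. *Rpa3*, the shortest, has the highest ratio (0.63), and *Rfc1*, *Prim2* and *Pola1*, the 3 longest, lie at -0.70 or lower.

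State by state, the S cells gave 8 members higher and 2 lower of 46 (7.6% and 34.9% of all genes), with a median of 0.24, and after centring 18 higher (16.5% of all genes) and 0 lower (25.6%). Highest were *Rfc4* (91.4 against 169 CPM, 0.88, 0.52–1.25), *Pole2* (0.80, 0.02–1.61), *Pcna* (496 against 833 CPM, 0.75, 0.59–0.91), *Rpa3* (0.74, 0.43–1.05) and *Pold1* (0.69, 0.22–1.17). Lowest were *Hells* (220 against 140 CPM, -0.65, -0.96 to -0.34), *Gins3* (-0.60, -1.54 to 0.29), *Rfc1* (-0.42, -0.79 to -0.06), *Prim2* (-0.38, -0.93 to 0.14) and *Mcm10* (-0.37, -1.09 to 0.33). These values moved with the settings. At state thresholds of 1.0% and 0.5% *Pole2* was at -0.03 and *Pold1* at -0.23, and at 0.3% and 0.2% *Hells* was at 0.25. *Rfc1* was at 0.04 without cells above 10000 UMIs, 0.05 with at most 3% mitochondrial UMIs besides, and 0.34 by the mean of per-cell CPM. The summed ratio in S was 0.25, and without cells above 10000 UMIs 22 members were higher, with a median of 0.60, where no share of all genes is given. With the S cells of the cycling clusters alone the summed ratio was 0.03 (-0.02 to 0.08) and the median 0.03, with 4 members higher (*Pole2*, *Rfc4*, *Rpa3* and *Pcna*, all among the 8; 9.2% of all genes) and 7 lower (23.7%). Of the other replication genes in S, *Tipin* (0.79, 0.53–1.05) and *Slbp* (0.78, 0.57–0.99) were among the 3 highest and *Rrm2b* (-0.88, -1.17 to -0.60), *Atad2* (-0.74, -1.18 to -0.32) and *Stn1* (-0.68, -1.58 to 0.17) lowest.

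In S-G2 cells, the most numerous cycling cells, 1 member (*Rpa3*, 0.81) was higher and 5 lower of 46 (4.01% and 34% of all genes), and the summed ratio was 0.07, and after centring 7 were higher (12.7%) and 1 lower (21.7%). Of the cells of the cycling clusters, 60.35% in WT and 44.04% in *Eif4g2* cKO were S-G2 cells. In G2/M cells 10 were higher and 4 lower of 47 (6.57% and 35.2% of all genes), with 20 higher (16.5%) and 0 lower (21.6%) after centring. *Tyms* (1.20), *Pcna* (1.07) and *Rrm2* (0.86) were the highest there. At state thresholds of 0.3% and 0.2% 2 members were higher in G2/M, without a share of all genes to set beside this count. The summed ratio there turned from 0.26 to -0.05. The G2/M state also differed in makeup. DP-like cells were 62 of its 224 cells in WT, at 1162 CPM, and 29 of 376 in *Eif4g2* cKO, at 1360 CPM. Within the cycling clusters the G2/M cells, 147 in WT and 334 in *Eif4g2* cKO, stood at 4014 and 4329 CPM. The median depth of the G2/M cells was 3918 UMIs in WT and 6000 in *Eif4g2* cKO. The parts of makeup and depth in the ratios were not tested. In intermediate cells 34 members were higher and 0 lower of 47 (9.06% and 44.9% of all genes), and 41 (23.7%) and 0 (26.1%) after centring. In that state the cycling clusters gave 126 of 2695 cells in WT against 276 of 1570 in *Eif4g2* cKO, and within them the summed level was lower in *Eif4g2* cKO, as given above.

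In resting cells, 11 members were higher and 1 lower of 42 (8.32% and 30.9% of all genes), with a median of 0.20 beside -0.18 for all genes, and centred, 16 were higher (16.4%) and 1 lower (22.3%). Highest after *Rpa3* (0.92, 0.68–1.16) were *Rfc4* (0.86, 0.36–1.37), *Pold1* (0.79, 0.30–1.30), *Pola2* (0.71, 0.27–1.15) and the helicase subunit *Mcm6* (43.6 against 70.3 CPM, 0.69, 0.43–0.95). Lowest were *Pola1* (17.4 against 6.80 CPM, -1.35, -2.03 to -0.72), *Rfc1* (-0.39, -0.65 to -0.13), *Rpa1* (-0.38, -0.62 to -0.14), *Prim2* (-0.33, -0.73 to 0.06) and *Pole2* (-0.33, -0.94 to 0.27). *Pola1* counted 89 UMIs in WT and 27 in *Eif4g2* cKO resting cells. The resting state also differed in makeup. DN-like cells gave 301847 of its 5120915 UMIs in WT and 628975 of 3970630 in *Eif4g2* cKO. Within classes, WT and *Eif4g2* cKO resting sums were 2458 and 2262 CPM in DN-like and 1046 and 1123 CPM in DP-like cells. They were 1045 and 1010 CPM in early post-selection-like and 1133 and 1257 CPM in mature SP-like cells. The part of makeup in the resting ratios was not tested. Across the 5 states 41 members were measured in each, of which 13 had a ratio above 0 in every state and 4 (*Orc2*, *Pola1*, *Prim2* and *Rfc1*) below 0 in every state. For *Rfc1* in S this did not hold under the settings named above, nor for *Orc2* in S-G2 by the mean of per-cell CPM (0.003). No share of all genes with 1 direction in every state is given here, so these counts cannot be read as particular to the members. The median of all genes was below 0 in each state, from -0.395 in intermediate to -0.18 in resting cells.

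By class of thymocytes the summed levels of the libraries lay close together. In DN-like cells 5 were higher and 7 lower of 33 (10.4% and 25.5% of all genes), and the summed ratio was -0.07 (-0.16 to 0.02). Without cells above 10000 UMIs 1 member was higher in DN-like cells, where no share of all genes is given, and *Rrm2* turned from 0.86 to -0.18. In DP-like cells 8 were higher and 5 lower of 38 (7.82% and 29.6%), with 14 higher (16.3%) and 3 lower (19.6%) after centring, and a summed ratio of 0.11. In post-selection-like cells, early and mature together, 2 were higher (*Pola2* and *Rpa3*) and 9 lower of 41 (8.58% and 32.6%), and the summed ratio was -0.06 (-0.12 to 0.01). The intervals of the sums held 0 in the first and the last of these classes.

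Over 37 groups of class, state and library with at least 50000 UMIs, which share cells of the same 2 libraries and differ in depth, the genes outside all lists whose level was most like that of the summed members were *Snrpg* (Pearson r of log2(CPM + 10) 0.94), *Nap1l1* (0.93), *Ranbp1* (0.93), *Hsp90aa1* (0.92), *Siva1* (0.91), *Snrpd1* (0.91), *Uqcr10* (0.91), *Dctpp1* (0.91), *Cenps* (0.91) and *Syce2* (0.91). Among the members themselves the values ran from 0.15 for *Orc2* and 0.26 for *Rpa1* to 0.97 for *Mcm5*. Each member is part of the sum it was compared with, so these values cannot be set beside those of genes outside the sum.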

How the data were processed

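Per the labels and methods, the authors made the deposited matrices of UMI counts per gene and cell with dnbc4tools (2.1.3 in the series text, 3.0 in the file header) on mm10. Whether counting used strand is not given in the sources used here. Cells with at least 50 genes and at most 10% mitochondrial UMIs were kept. T lineage cells of both libraries were clustered with scanpy 1.11.5 (2000 variable genes, 30 components, 20 neighbours, resolution 1.0), without the members, histone, mitosis and other replication genes, and classes were named from at least 3 markers. Counts were summed per library, class and state and divided by the UMI total (CPM), and Poisson intervals were exact (scipy 1.17.1). Ratios used genes with at least 50 UMIs over both arms, with exact conditional binomial intervals, and were counted past 0.5 (genotype) or 1.0 (S over resting) on the log2 scale. With 1 library per genotype no test was made. The rule for naming genes took the 8 members with the most UMIs and the 5 highest and 5 lowest members of a comparison (3 for other genes). Of these 8, *Mcm7*, *Uhrf1* and *Mcm2* are not described singly here. Further genes were chosen after their values were seen. Members and lists were chosen with earlier results of these data known. Alternatives were other state thresholds, thinning to 1000 UMIs, cell filters, count minimums, centring, means of per-cell CPM and other clusterings. For these, other than centring, counts of members are given without the share of all genes and cannot be read as particular to the members. Spans are from GENCODE M21 (21456 of 21926 genes matched). The calculation was tested on simulated data. The oligo libraries carry no values here. Of the other replication genes, 1 named by the rule is not reported here.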

Additional observations from a re-analysis of the deposited data

Results flagged for a closer look

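Outside the T lineage, which the comparisons used, the summed level of the 47 members was 1818.7 CPM (1639-2013) in 63 antigen-presenting-like cells of WT and 799.8 CPM (590-1060) in 26 such cells of *Eif4g2* cKO. In 44 erythroid-like cells of WT it was 210.1 CPM (159-272). Each lay above the limit that a count of 0 allows (3 UMIs, 14.6, 49.99 and 11.1 CPM), which is why it is given here. The difference between the libraries in the antigen-presenting-like cells was not tested.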

How the results depend on the processing

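No paired analysis was possible because each genotype had 1 library. Values are members higher, or median log2 ratios, and the cause of each shift was not tested unless the construction shows it. State thresholds of 0.3% and 0.2%: S over resting in WT 1.688; *Eif4g2* cKO over WT in S 0.723 and 30 higher, in G2/M 2 higher with a summed ratio of -0.047 (reversed); share of S, S-G2 and G2/M cells 28.76% WT and 32.5% *Eif4g2* cKO. Thresholds of 1.0% and 0.5%: shares 12.77% and 19.12%. Thinned to 1000 UMIs: 14 higher in S, 18 in resting, shares 20.85% and 27.64%. Without cells above 10000 UMIs: T lineage 0.433 and 21 higher, S 0.596 and 22, S-G2 2, DN-like 1, cycling clusters 2 with a summed ratio of 0.068 (reversed), shares 14.92% and 20.61%. With 1000 to 10000 UMIs and at most 3% mitochondrial UMIs: T lineage 0.432 and 21, S 0.60 and 22, S-G2 2, DN-like 1, cycling clusters 2 and 0.067 (reversed), shares 15.03% and 20.71%. Centred on all genes: S over resting in *Eif4g2* cKO 2.913, T lineage 0.685 and 35, S 18, S-G2 0.189 and 7, G2/M 20, DP-like 14, post-selection-like 4, cycling clusters 0.208 and 3 with a summed ratio of 0.234 (reversed). Mean of per-cell CPM: S over resting in WT 1.868, T lineage 0.50 and 23, S 0.792 and 37, S-G2 3, G2/M 18, resting 7, DN-like 2, post-selection-like 4, cycling clusters 2. At least 200 UMIs, which leaves fewer genes: S over resting 26 in WT and 24 in *Eif4g2* cKO, resting 7, DN-like 1, DP-like 2, post-selection-like 1. No minimum: DN-like 8. Each library clustered alone: DN-like 3. S cells of the cycling clusters only, chosen after seeing the data, as were the S-G2 and cycling cluster comparisons: S 4. Depth limits members under 50 UMIs, such as *Orc1* in S and resting cells. *Lig1* in S turned from -0.268 to between 0.306 and 0.566 under 4 of these settings.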
